A study of Rattus norvegicus with 6 samples.

Results

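The 5' fragments of glutamic acid tRNA (Glu) were followed in small RNA libraries of rat muscle, 3 titled as control and 3 titled as experimental. A member was a distinct sequence that matched the mature tRNA without a mismatch, started at position 1, 2 or 3 and, of all mature tRNAs, matched only the nuclear Glu tRNAs with the anticodons CTC or TTC. The rule took 173 of the 77567 distinct tRNA-aligned sequences. Of these, 72 matched only Glu-CTC, 97 only Glu-TTC and 4 both, and none matched a precursor tRNA. The rule lost no sequence to sharing, because 0 exact Glu 5' sequences also matched another family. Most members were rare. A single read was all there was of 38 of them, 82 had more than 9 reads in all, and 47 were found in all 6 libraries.

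The labels give the rat strain as lewis, the tissue as muscle and the age as 6 to 8 weeks for every library. The series title concerns tRNA fragments as markers of acute rejection after a composite tissue transplant, but how the experimental muscles were treated is not stated. The labels conflict on this point: a skin phenotype entry reads normal for the controls and UV damage for the experimental libraries, and the design text speaks of mouse skin. The groups are therefore called control and experimental, as titled, and whether replicates are different animals is not stated. The p-values below therefore reflect spread between libraries, part or all of which may be technical. The tables hold only reads aligned to tRNAs, so the muscle label was not checked against marker genes. The tRNA-aligned totals were 550004, 740627 and 316990 reads in the controls and 876494, 1927269 and 1866227 in the experimental libraries.

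A transfer RNA folds into a cloverleaf whose anticodon loop carries the 3 bases that read the codon. Cleavage in or near that loop, for example by the nuclease angiogenin during stress, releases a 5' fragment and a 3' fragment. Short pieces cut further upstream, called tRF-5 in fragment catalogues, and pieces cut in the loop, called tiRNA-5, are both reported for tRNA-Glu in many mammalian tissues. In the fold that the table gives for Glu-CTC-1, the acceptor stem opens at positions 1 to 7, the D arm covers 10 to 25, the 5' strand of the anticodon stem covers 27 to 31, the anticodon loop covers 32 to 38 and the 3' strand of the stem covers 39 to 43. The anticodon itself lies at 34 to 36. Positions count from 1 at the 5' end of the mature tRNA.

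The first 40 bases of the TTC versions (isodecoders) that supplied nearly all Glu-TTC reads are shown because they decide which fragments can be told apart. Capitals mark the anticodon.
Glu-TTC-2 and Glu-TTC-3: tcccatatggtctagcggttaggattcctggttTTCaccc
Glu-TTC-4: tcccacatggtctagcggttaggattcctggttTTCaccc
Glu-TTC-2 and Glu-TTC-3 are identical over this stretch and their fragments cannot be told apart. Glu-CTC-3 first differs from Glu-CTC-1 at base 28, so the 2 share every fragment that ends earlier. Glu-TTC-1 first differs from Glu-CTC-1 at base 19, whereas Glu-TTC-4 differs from it at 10 of the 40 bases. The table places the first listed gene of Glu-TTC-4 at chr1:115716360-115716431, on a build and strand not given in the sources used here. It lists 6 precursor genes for Glu-CTC-1 and 4 for Glu-TTC-4, and a mature fragment does not show which of these it came from.

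The Glu-TTC-4 fragments are printed here with the last base in capitals, since they start at the same base and differ in where they stop. Their group differences are given by stop below, and no test compared 1 stop with another.
Glu-TTC-4 1 to 28: tcccacatggtctagcggttaggattcC
Glu-TTC-4 1 to 29: tcccacatggtctagcggttaggattccT
Glu-TTC-4 1 to 30: tcccacatggtctagcggttaggattcctG
Glu-TTC-4 1 to 33: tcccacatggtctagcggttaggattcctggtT
Glu-TTC-4 1 to 39: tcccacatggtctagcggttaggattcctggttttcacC

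Members supplied 17071, 16331 and 8999 reads in the controls, against 60034, 72061 and 45570 in experimental libraries. As a share of tRNA-aligned reads that was 3.10%, 2.21% and 2.84% against 6.85%, 3.74% and 2.44%. Experimental replicate 1 was the highest, experimental replicate 3 lay inside the control range, and the groups overlapped. The means were 2.72% ± 0.462 (SD, n = 3) and 4.34% ± 2.27 (SD, n = 3), a difference that did not exceed the spread between libraries (two-sided exact permutation test, p = 0.3, adjusted p = 0.457 over 8 shares and mean ends). Without experimental replicate 1 the difference was 0.374 percentage points, against 1.63 with all libraries. With 3 libraries against 3 the smallest p this test can give is 0.1. In bulk tissue such a share cannot separate a change in the number of cells of a type from a change in RNA per cell. At these read numbers the 95% Wilson interval of a share of Glu 5' reads reaches at most 0.365 to 1.03 percentage points to either side, depending on the library. These intervals leave out everything but counting error, and PCR copies do not count as independent molecules.

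Nearly all fragments began at the first base of the mature tRNA. Between 99.01% and 99.83% of member reads in each library started at position 1, so the libraries differed almost entirely in the 3' end of the fragment. Stops ran from position 28 in the 5' strand of the anticodon stem to 36 at the end of the anticodon, with a separate peak at position 39, the first base of the 3' strand of the stem. Position 30 took 1.96% to 6.11% of reads. In the fold, 31 and 39 are the pair that closes the anticodon loop. Positions 37 and 38 were nearly empty.

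**Figure D1:**
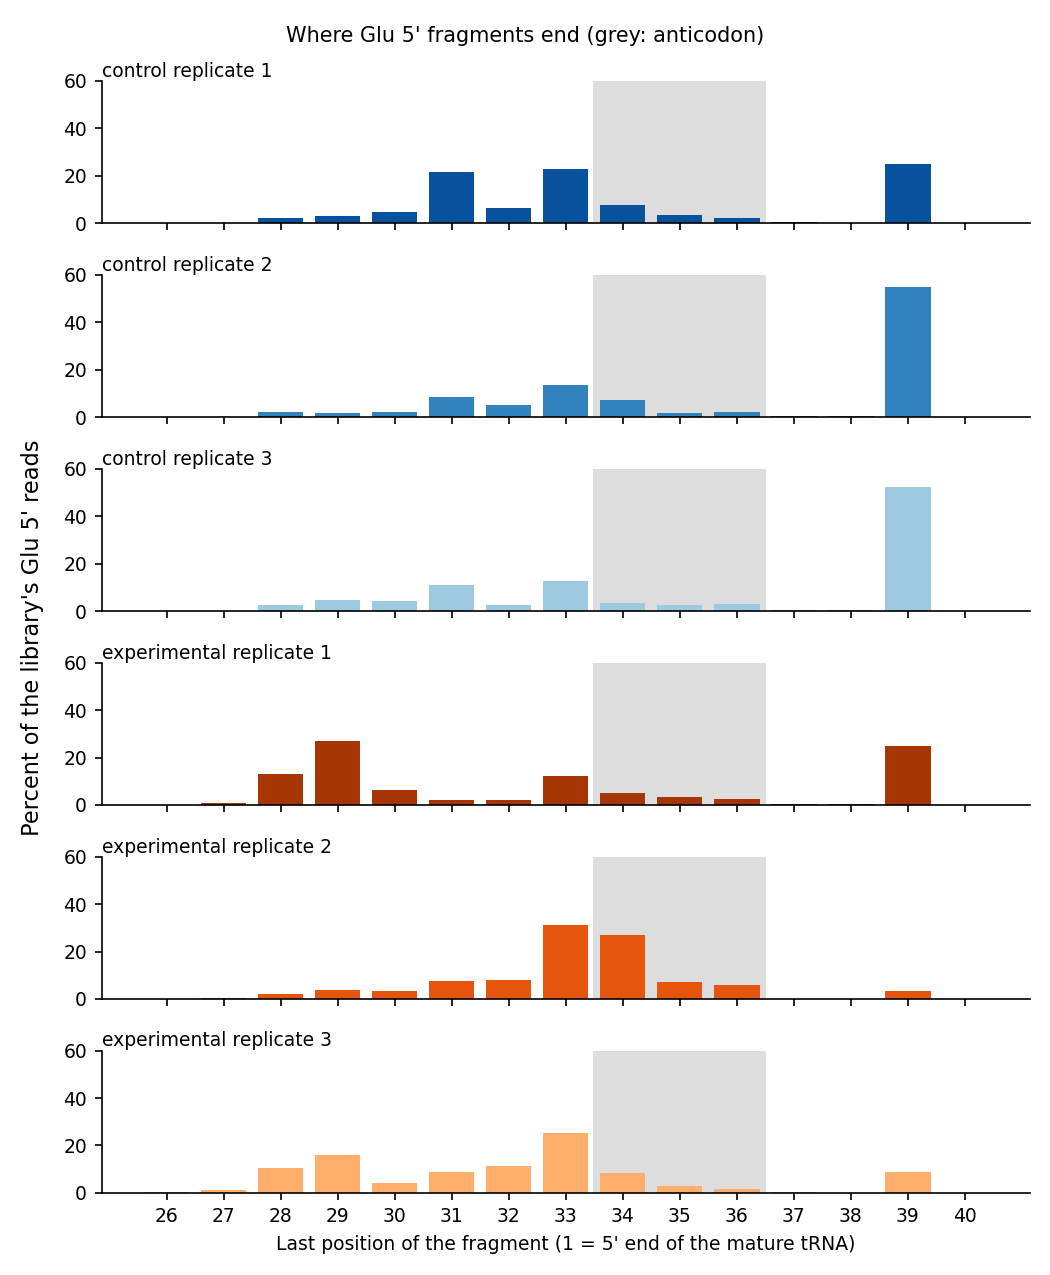
Percent of each library's Glu 5' reads (y axis) by the last position of the fragment (x axis), 1 panel per library, control in blue and experimental in orange, with the anticodon shaded. The bar at 39 holds 54.9% and 52.5% of reads in control replicates 2 and 3, and 24.9% in both control replicate 1 and experimental replicate 1.

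Stops at position 39 took 24.9%, 54.9% and 52.5% of Glu 5' reads in the control libraries. In the experimental libraries they took 24.9%, 3.22% and 8.80%. The highest experimental library was level with the lowest control library, and the remaining 2 of each group lay far apart. The means were 44.1% ± 16.7 (SD, n = 3) and 12.3% ± 11.3 (SD, n = 3), and the groups overlapped (exact permutation test, p = 0.2, adjusted p = 0.571 over 10 positions). In counts per 1000000 tRNA-aligned reads (CPM), the same stop had 7718, 12098 and 14903 against 17046, 1204 and 2148, so that experimental replicate 1 was the highest of all 6 libraries on that scale. The table holds sequences of up to 40 nt, and stops at position 40 took at most 0.122% of Glu 5' reads.

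Stops at positions 28 and 29 together were high in 2 of the 3 experimental libraries. They took 5.20%, 3.74% and 7.26% of Glu 5' reads in the controls and 40.1%, 5.79% and 26.4% in the experimental libraries. Experimental replicates 1 and 3 were above every control, and experimental replicate 2 lay within the control range. In CPM of tRNA-aligned reads the values were 1613, 825 and 2060 against 27488, 2165 and 6452, and here the groups did not overlap, with experimental replicate 2 just above control replicate 3 (exact permutation test, p = 0.1, the smallest possible). This sum in CPM was not a planned test, and its p is not adjusted. The planned shares at 28 and at 29 overlapped (exact permutation test, p = 0.4 and 0.2, adjusted p = 0.571 over 10 positions for each).

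Around the anticodon, experimental replicate 2 stood out. Stops at positions 33 and 34, the last base before the anticodon and its first base, took 58.3% of its Glu 5' reads. The share was 17.1% and 33.7% in experimental replicates 1 and 3 and 30.5%, 20.6% and 16.1% in the controls, and the groups overlapped (exact permutation test, p = 0.4). Position 31, the last base of the stem before the loop, was used most in control replicate 1, at 21.4%, against 8.499% and 11.06% in the other control libraries and 2.20%, 7.699% and 9.002% in the experimental ones. None of the 10 positions that held at least 1% of reads in a group had an exact p below 0.2. The 3 experimental libraries thus each had a profile of their own, led by position 29 in replicate 1 and by position 33 in replicates 2 and 3.

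Summed up as the mean last position, the control fragments stopped at 33.86, 36.05 and 35.65 and experimental ones at 32.66, 33.18 and 32.03. The groups did not overlap. The means were 35.2 ± 1.17 (SD, n = 3) and 32.6 ± 0.577 (SD, n = 3), a difference of -2.57 nt at the smallest p the exact permutation test allows (p = 0.1, adjusted p = 0.4 over 8 shares and mean ends). Among reads that ended at 36 or before, an alternative chosen after seeing the data, the difference was -0.504 nt and the groups overlapped (exact permutation test, p = 0.6). Stops at 37 or later took 25.6%, 55.9% and 53.5% of reads against 25.6%, 3.37% and 9.16%. Control replicate 1 and experimental replicate 1 differed there by less than their counting intervals, so the order of the groups at p = 0.1 (exact permutation test) hangs on a tie.

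For fragments that start at position 1, the type given in the table went with the stop. Only a stop at 34 was typed tiRNA-5 and stops at 28 to 32 were typed tRF-5c. Stops at 33, 35 to 40 and 25 to 27 were typed Other, which took 40.7% to 73.7% of Glu 5' reads in a library. Both the stop at 39 and the stop at 33 are therefore absent from the 2 named classes.

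The anticodon Glu-CTC supplied most of the reads. Glu-TTC members took 12.4%, 2.40% and 4.45% of Glu 5' reads in control libraries and 7.96%, 7.61% and 3.99% in experimental ones, with no order between the groups (exact permutation test, p = 1). Glu-CTC-1 alone accounted for 87.2% to 97.3% of Glu 5' reads. On the TTC side, Glu-TTC-4 and the pair Glu-TTC-2 and Glu-TTC-3 supplied similar amounts, 208 to 3043 and 167 to 2311 reads a library. Sequences of Glu-CTC-3 alone had 31, 28 and 24 reads in the controls and 995, 249 and 755 in experimental libraries, and those of Glu-CTC-2 had 2 to 18 reads a library.

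The 2 anticodons stopped at different places in the same libraries. Position 39 took 28.2%, 56.0% and 54.5% of Glu-CTC reads in the controls and 26.9%, 3.46% and 9.14% in the experimental libraries. For Glu-TTC it took 1.18%, 10.2% and 8.75%, then 1.28%, 0.364% and 0.715%. Glu-CTC was higher in 6 of 6 libraries, by a mean of 25.97 percentage points (exact sign-flip test over libraries, p = 0.03125, the smallest possible, adjusted p = 0.104 over 10 positions). Conversely, positions 35 and 36 inside the anticodon took 3.62% to 12.65% of Glu-CTC reads and 10.9% to 29.5% of Glu-TTC reads. At each of those positions Glu-TTC was higher in 6 of 6 libraries (exact sign-flip test, p = 0.03125 and adjusted p = 0.104 for each). The Glu-TTC shares rest on fewer reads, 392 to 5487 a library, and their 95% Wilson interval reaches at most 1.32 to 4.93 points to either side.

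**Figure D2:**
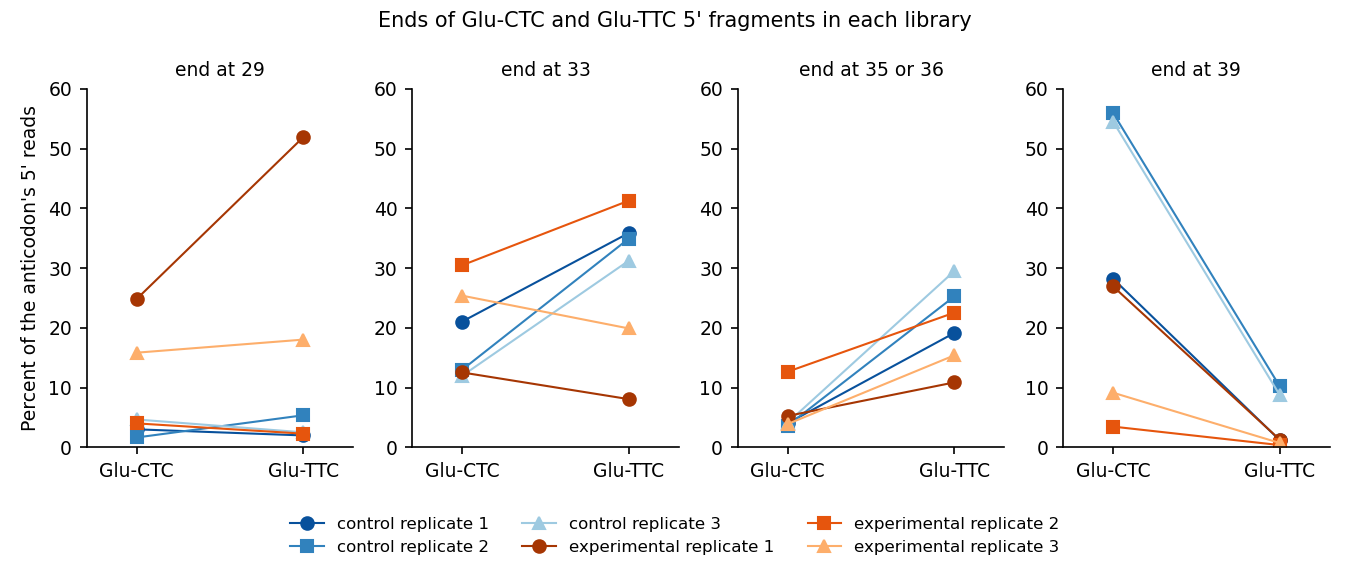
Percent of an anticodon's 5' reads (y axis, 0 to 60) that stopped at the named positions in Glu-CTC and Glu-TTC (x axis), with 1 line per library. All 6 lines fall from Glu-CTC to Glu-TTC at position 39 and all 6 rise at positions 35 and 36, while at 29 and 33 they cross.

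At position 29 no such order appeared (exact sign-flip test, p = 0.438, adjusted p = 0.586 over 10 positions). Glu-CTC had 3.00%, 1.64% and 4.65% of its reads there in the controls and 24.83%, 3.999% and 15.84% in the experimental libraries. Glu-TTC had 1.98%, 5.357% and 2.5%, then 51.9%, 2.28% and 18.0%. Experimental replicate 1 was highest and experimental replicate 3 second for both anticodons. The 2 sources of Glu-TTC, which differ in the sixth base, had nearly the same profile: stops at 28 to 30 took 72.8% of Glu-TTC-2 and Glu-TTC-3 reads and 64.4% of Glu-TTC-4 reads in experimental replicate 1, against 5.83% and 4.83% in experimental replicate 2. The mean last position of Glu-CTC was 35.3 ± 1.16 in control and 32.7 ± 0.590 in experimental libraries (SD, n = 3 each; exact permutation test, p = 0.1). That of Glu-TTC was 33.8 ± 0.380 and 31.9 ± 1.34 (SD, n = 3 each; exact permutation test, p = 0.1). Neither anticodon's groups overlapped. The gap between the anticodons was 1.49 ± 0.811 nt among controls and 0.829 ± 1.302 nt among experimental libraries (SD, n = 3 each), and the groups overlapped (exact permutation test, p = 0.6).

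Single fragments were compared in a fit over all 2226 tRNA-aligned sequences that passed a filter on low counts (limma voom with Benjamini-Hochberg adjustment, threshold 0.05). Levels below are normalised CPM. Of the 173 members, 40 passed the filter, and they held 99.2% of member reads. Adjusted p fell below 0.05 with a higher experimental level for 9 of the 40, or 22.5%, beside 18.7% of all sequences tested, and with a lower level for 1, or 2.5%, beside 7.64%. The members' share is near the background, and their count of calls is no result about Glu. Their median log2 fold change was 1.02, beside 0.21 over all sequences, and 31 of 40 were positive. The share of positive values over all sequences is not given here. With nuclear sequences alone the members' median was 0.397, beside -0.0147 over all. Without 1 library it ranged from 0.376 (without experimental replicate 2, beside 0.187) to 1.70 (without control replicate 1, beside 0.275). The fit took 1 pooled spread for all sequences. With each fragment's own spread 0 members passed (limma), beside 0.674% of all sequences higher and 0.359% lower. At unadjusted p under 0.05 that fit had 8 of 40 members, or 20%, beside 26.5% of all sequences.

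By stop, the tested members were distributed as follows, which is a description only. All 9 higher members ended between positions 26 and 30, where 13 members were tested, with a median log2 fold change of 3.07. None of the 6 that ended at 31 or 32 was called, with a median of 1.14. None of the 14 that ended at 33 to 36 was called either, although all 14 were positive, with a median of 0.55. The 7 that ended at 37 to 40 were all negative, with a median of -1.39, and 1 was called. These members come from the same few tRNAs and the same 6 libraries, so they are not separate evidence. Of the 9, 3 reached the filter's level in no control library, and such fragments had to differ to be tested at all. With no filter 5 of 14 higher calls ended elsewhere, and without control replicate 1 it was 2 of 10.

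**Figure D3:**
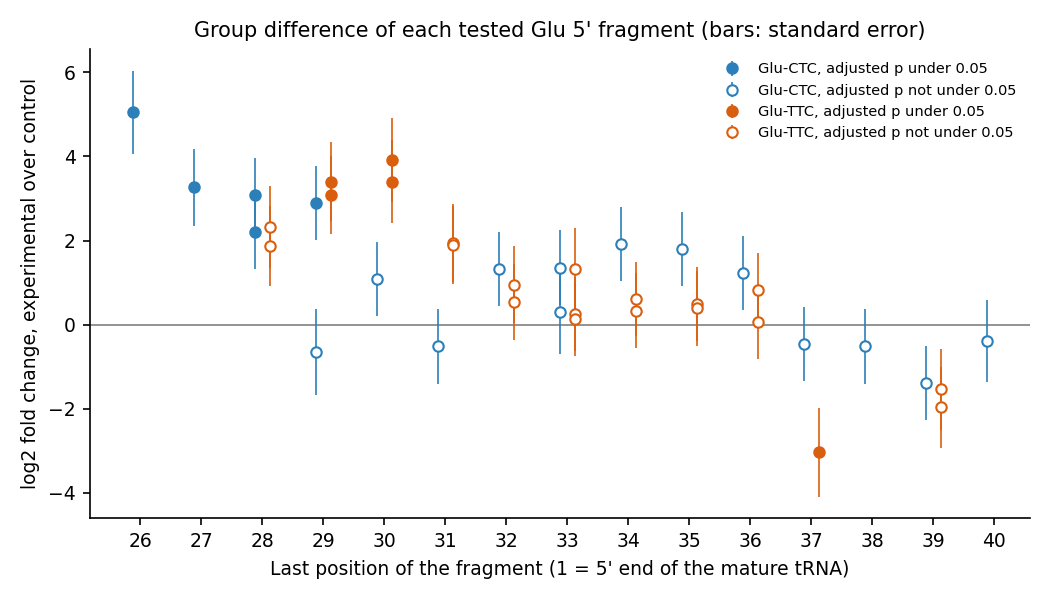
Log2 fold change of experimental over control (y axis, limma voom; bars are standard errors) for the 40 tested Glu 5' fragments by last position (x axis). Blue is Glu-CTC, orange is Glu-TTC, and filled points have an adjusted p under 0.05: the 9 filled points above 0 lie at 26 to 30, and the 1 below 0 lies at 37.

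For the stops at 27 to 29 the levels of single fragments were mostly ordered by group. Glu-CTC-1 1 to 28, with its stop in the anticodon stem, had 627.4, 374.2 and 593 CPM in control libraries and 5704, 1011 and 2353 in experimental ones. All 3 experimental libraries were above all 3 controls. Its log2 fold change of 2.20 was close to the threshold (SE 0.881, limma voom adjusted p = 0.0483), and it passed under 2 of 15 alternative settings. The shared fragment 1 to 27 of Glu-CTC-1 and Glu-CTC-3 had 46.5, 15.6 and 25.2 CPM against 402.3, 133.9 and 335, again without overlap (log2 fold change 3.27, limma voom adjusted p = 0.00333). Glu-TTC-4 1 to 28 had 17.4, 7.80 and 5.594 CPM against 121.1, 35.6 and 30.1. Its groups did not overlap either, and it was not called (log2 fold change 2.31, limma voom adjusted p = 0.0621).

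At the next base, Glu-TTC-4 1 to 29 had 30.98, 10.4 and 19.58 CPM against 946.5, 56.8 and 77.0, the bulk of it in experimental replicate 1 (log2 fold change 3.08, limma voom adjusted p = 0.00669). Without that library its log2 fold change was 1.48 (limma voom adjusted p = 0.218), without control replicate 2 or 3 it was 2.63 or 2.85 (limma voom adjusted p = 0.0546 and 0.0621), and it passed under 8 of 14 alternative settings. Glu-TTC-4 1 to 30 passed the filter on low counts through experimental libraries alone. Such a fragment had to differ to be tested at all, so its values are a description only. It had 9.68, 3.898 and 2.797 CPM against 219.8, 43.35 and 24.7 (log2 fold change 3.40, limma voom adjusted p = 0.00448). It passed under 9 of 14 settings, and not without experimental replicate 1 (log2 fold change 2.14, limma voom adjusted p = 0.111) or without control replicate 3 (log2 fold change 2.89, limma voom adjusted p = 0.0913). Beside the anticodon the groups of the Glu-TTC-4 fragments overlapped. Of all 14 tested members that ended at 33 to 36, the groups did not overlap in 1. Glu-TTC-4 1 to 33, the most abundant Glu-TTC member, had 695.2, 101.4 and 190.2 CPM against 177.4, 1249 and 103.4, and its groups overlapped (log2 fold change 0.26). Glu-TTC-4 1 to 34, which ends in the anticodon, had 402.8, 22.1 and 64.3 CPM against 69.2, 344.9 and 87.2, with overlap as well (log2 fold change 0.60). Past the anticodon, Glu-TTC-4 1 to 39 had 15.5, 29.9 and 42.0 CPM against 25.1, 8.67 and 3.608. Experimental replicates 2 and 3 were below every control and experimental replicate 1 was among them (log2 fold change -1.53, limma voom adjusted p = 0.242). The Glu-TTC-4 fragments ending at 28, 34 and 39 were named after their values were seen.

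**Figure D4:**
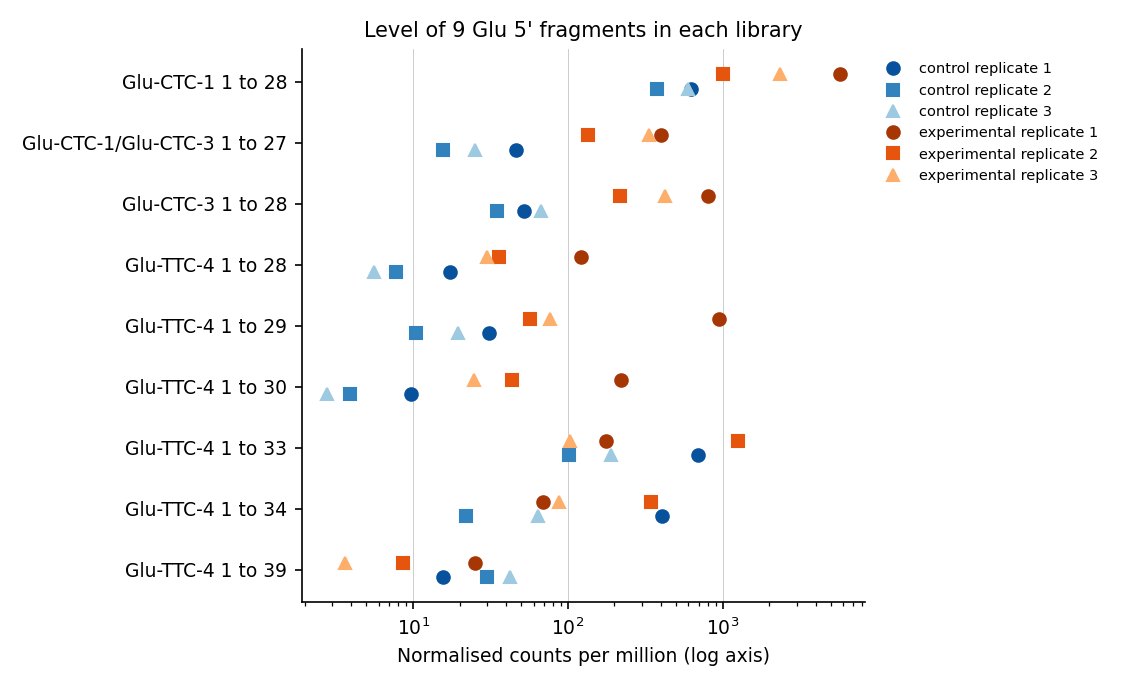
Normalised CPM (x axis, log scale) of 9 Glu 5' fragments in each library, control in blue and experimental in orange. For the drawn fragments ending at 27 to 30 every orange point lies right of every blue point. Of these, Glu-TTC-4 1 to 30 passed the filter on low counts through experimental libraries alone. For the Glu-TTC-4 fragments ending at 33, 34 and 39 the groups mix. Tested members with stops at 28 to 30 whose groups overlapped, such as the 1 to 28 fragment of Glu-TTC-2 and Glu-TTC-3, are not drawn. Nor is the 1 tested member ending at 33 to 36 whose groups did not overlap.

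The 3 fragments that passed the filter through experimental libraries alone were 1 to 26 of Glu-CTC-1 and Glu-CTC-3, 1 to 30 of Glu-TTC-4 and 1 to 30 of Glu-TTC-2 and Glu-TTC-3, and their values are a description. The fragment 1 to 26 that Glu-CTC-1 and Glu-CTC-3 share had 0, 1.299 and 2.797 CPM in control libraries, and 63.2, 39.5 and 112.5 in experimental ones (log2 fold change 5.05 with SE 0.989, adjusted p = 1.17e-05 by limma voom). The controls hold 2 of its reads and the experimental libraries 301, a normalised ratio of 64.1 with an exact 95% counting interval of 17.6 to 532, so the size of the fitted change depends on the prior count. Fragments 1 to 29 and 1 to 30 of Glu-TTC-2 and Glu-TTC-3 moved by 3.40 and 3.91 on the log2 scale, with experimental replicate 1 highest at 1144 and 168.7 CPM (limma voom adjusted p = 0.00289 and 0.000979). Without experimental replicate 1 the changes were 1.73 and 2.66 (limma voom adjusted p = 0.196 and 0.0867), and without control replicate 3 they were 2.51 and 3.04 (limma voom adjusted p = 0.102 and 0.0791). Each passed under 9 of 14 alternative settings. No member called lower had at least 50 CPM in its higher group. The 1 member called lower, named after its values were seen, was the 1 to 37 fragment of Glu-TTC-2 and Glu-TTC-3, with 27.1, 6.50 and 11.2 CPM against 9.52, 0.963 and 0 (log2 fold change -3.03, limma voom adjusted p = 0.0204), and its groups overlapped. Over all 40 tested members, the groups did not overlap with the experimental level higher in 11, or 27.5%, beside 26.1% of all sequences, and with it lower in 0, beside 14.6%.

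The number of members called depended on the scaling and on single libraries. The scaling factors were 0.986, 1.10 and 1.19 in control libraries and 1.46, 0.562 and 0.939 in experimental ones. With library totals and no factor, 1 of the 40 was called higher, beside 10.5% of all sequences, and 0 lower, beside 125 of 2226. With nuclear tRNA sequences alone 3 were called higher, beside 14.3% of all, and 1 lower, beside 107 of 1382. Leaving out experimental replicate 1 gave 3 higher, beside 12.1% of all, and 3 lower, beside 172 of 2226. Leaving out control replicate 3 gave 4 higher, beside 6.51% of all, and 0 lower, beside 132 of 2226. Under these 4 settings, as with all libraries and sequences scaled together, 12 of the 13 members that end at 26 to 30 had a positive log2 fold change. The exception started at position 2. This is a description only, since 3 of the 13 passed the filter through experimental libraries alone. The 13 also come from the same few tRNAs and the same libraries, so they are not separate evidence.

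The called fragment Glu-CTC-3 1 to 28, named after its values were seen, differs from Glu-CTC-1 1 to 28 at 1 base, the last. It had 52.3, 35.1 and 67.1 CPM in control libraries and 806.3, 218.7 and 425.8 in experimental ones (log2 fold change 3.07, limma voom adjusted p = 0.00479). Between 87.1% and 100% of the reads that matched Glu-CTC-3 alone ended at 28. Its fragments with earlier stops are shared with Glu-CTC-1 and cannot be assigned. Of the fragments 1 to 28 with either last base, the Glu-CTC-3 form took 7.69%, 8.57% and 10.2% in the controls and 12.4%, 17.8% and 15.3% in the experimental libraries. Reads of Glu-CTC-3 1 to 28 cannot be told apart from Glu-CTC-1 reads with another base at their end.

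Other tRNA families were set beside Glu by the same rule, with stops counted from the first anticodon base. The stop at 39 lies 5 nt after that base. It took 3.22% to 54.9% of Glu 5' reads, and in each library it took a larger share in Glu than in any of 5 other families. The range was 0.00317% to 0.0298% for Gly, 0.0222% to 0.381% for Lys, 0% to 0.0133% for His, 0% in every library for Val and 0% to 6.45% for Asp. Each of these differences had Glu higher in 6 of 6 libraries (exact sign-flip test, p = 0.03125, adjusted p = 0.03125 over 5 families), and the position was chosen after its values were seen. Asp rests on 31 to 522 reads and Val on 138 to 3952 reads a library. In Asp, on these few reads, the stop took 5.77%, 4.65% and 6.45% in the controls against 1.42%, 0% and 0.621%. Its mean was higher in the controls, as was that of Glu, where the groups overlapped.

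**Figure D5:**
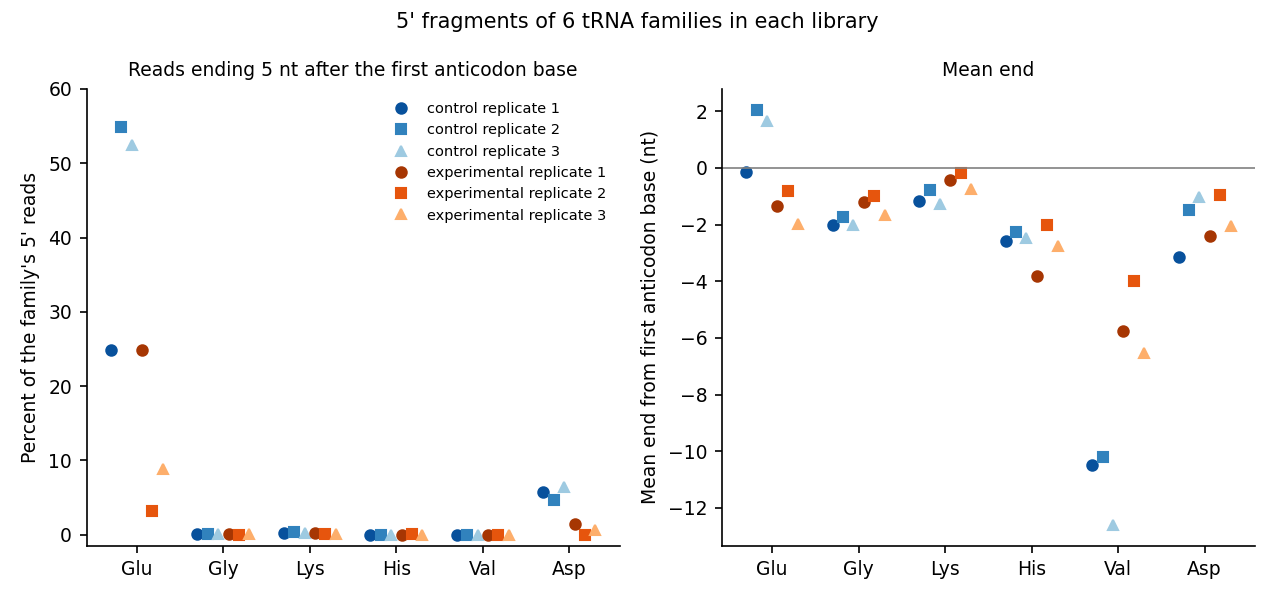
Left, percent of a family's 5' reads that end 5 nt after the first anticodon base (y axis) for 6 tRNA families (x axis). Right, mean end relative to the first anticodon base in nt, with 1 point per library: the Glu points of the experimental libraries lie below those of the controls, whereas those of Gly, Lys and Val lie above. For His and Asp the groups overlap.

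The mean end of Glu lay further upstream in the experimental libraries, and those of Gly, Lys and Val lay further downstream. From the first anticodon base it was 1.19 ± 1.17 nt and -1.38 ± 0.577 nt in the control and experimental groups for Glu (SD, n = 3 each). It was -1.93 ± 0.169 and -1.28 ± 0.336 nt for Gly, -1.06 ± 0.254 and -0.457 ± 0.282 nt for Lys, and -11.1 ± 1.309 and -5.42 ± 1.301 nt for Val. For Asp it was -1.88 ± 1.11 and -1.80 ± 0.766 nt, and for His -2.44 ± 0.160 and -2.86 ± 0.905 nt (SD, n = 3 each). The groups overlapped for both. Each gap below takes in the change of Glu itself, -2.57 nt. The gap between Glu and Gly differed between the groups by -3.23 nt, that between Glu and Lys by -3.18 nt, that between Glu and Val by -8.25 nt and that between Glu and Asp by -2.65 nt. For these 4 families the gaps did not overlap between groups (exact permutation test, p = 0.1 and adjusted p = 0.125 over 5 families, p at its smallest possible value). The gap to His differed by -2.15 nt with overlap (exact permutation test, p = 0.2).

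The same stretch was examined in the other families. Stops 6 or 5 nt before the first anticodon base took 1.65%, 0.922% and 3.51% of Gly 5' reads in the controls and 11.8%, 0.455% and 3.19% in the experimental libraries. For His the shares were 0.636%, 0.413% and 1.10%, then 13.6%, 2.12% and 5.64%. For Val they were 0.630%, 3.68% and 2.17%, then 16.68%, 0.4995% and 5.362%. Experimental replicate 1 was the highest library in Gly, His and Val, as it was in Glu at 40.1%. For Asp, on few reads, the shares were 40.4%, 33.3% and 22.6%, then 34.04%, 3.64% and 21.7%, and control replicate 1 was the highest. Lys stayed between 0.110% and 1.74% in every library.

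The rest of the Glu tRNA was hardly seen. Of tRNA-aligned reads, Glu 3' fragments were 0.0271% ± 0.00711 (SD, n = 3) in controls, against 0.0527% ± 0.0376 (SD, n = 3) in experimental libraries. Internal fragments took 0.170% ± 0.0766 and 0.242% ± 0.137 (SD, n = 3 each). Both overlapped between the groups (exact permutation test, p = 0.4 for each). The 3' partner of a fragment that stops at 28 to 39 is 47 to 36 nt long with its CCA. The table holds nothing over 40 nt, so partners of the stops at 28 to 34 could not be seen at full length.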

How the data were processed

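Small RNA libraries of 6 rat muscle samples were analysed, grouped by their titles (3 control, 3 experimental). The deposited table gives raw read counts for each distinct sequence in every library, per the file headers, with its alignments (at most 1 mismatch) to 225 mature tRNAs carrying CCA and 379 precursors made by the authors. These counts equalled those in the libraries' own files for every sequence. An aligner is not given in the sources used here. As genome build, mm9 of the mouse stands in the submitters' processing notes, although the tRNA set is not that of mouse.

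Each sequence was counted once. Shares and mean last positions were computed from all member reads, with means ± SD over libraries. Groups were compared by exact permutation tests (two-sided), and values within the 6 libraries by exact sign-flip tests, each with Benjamini-Hochberg adjustment inside its family. Because 1812 lines of text stand between the counts, a count model was not used. Sequences reaching the CPM of 10 counts in 3 libraries, with 15 counts in total, were fitted with limma 3.58.1 voom (prior count 0.5, no covariate) in R 4.3.3, after trimmed mean of M values scaling (trims 0.3 and 0.05). Adjustment was over all 2226 sequences. The prior degrees of freedom were infinite, so 1 spread was pooled and standard errors of members lay between 0.877 and 1.06. The fit was tested only on simulated data drawn with 1 spread for all sequences. That test cannot show how the fit behaves where spreads differ between sequences.

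Members named are the 10 most abundant, the 6 largest rises and falls at adjusted p under 0.05 whose higher group reached 50 CPM, and the most abundant of each anticodon class. No member on both anticodons passed the filter, and some members that the rule names are not reported here. The members, lists and tests were chosen with earlier results of these data known. Alternatives covered scaling, filters, spread, mismatches, start position, denominators, the replicate block and each library left out.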

Additional observations from a re-analysis of the deposited data

How the results depend on the processing

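Every library was left out in turn, and scaling, filters, spread, mismatches and start position were varied. For shares and mean ends, all 76 values under the other settings kept direction and side of the threshold. Of 138 values without 1 library 5 changed sign: the Glu-TTC share (between -1.91 and 3.10 points, 0.0978 with all) and the share ending at 36 (-0.513 to 1.76, 0.855 with all). With 3 libraries a group no such test could pass 0.05. Members called higher, 9 as reported, numbered 1 with library totals (beside 10.5% of all sequences), 14 of 100 with no filter (6.32%), 3 of 24 with the stricter filter of 50 counts' worth (18.6%), 0 with each fragment's own spread (0.674%), 3 with nuclear sequences alone (14.3%), and 3 to 10 without 1 library (6.51% to 17.1%). Members called lower, 1 as reported, numbered 0 with library totals (beside 125 of 2226 sequences), 0 with the stricter filter (39 of 630) and 0 with own spread (0.359%). They numbered 0 with limma trend (156 of 2226) and 0 to 3 without 1 library (100 to 185 of 2226). Glu-TTC-4 1 to 33 changed sign with nuclear sequences alone (log2 fold change -0.36) and ranged from -0.81 to 1.05 without 1 library. The causes were not tested. Median-of-ratios scaling moved the median of all sequences from 0.21 to 0.01 and library totals to -0.08, so rises are relative to these. Deviations from the group means correlated at r = -0.31, -0.0573 and 0.136 between same-numbered libraries, and at -0.417 to 0.378 between differently numbered ones. These few values cannot show whether the numbers pair samples, which the labels do not state. With the replicate block 8 of 40 members were higher, beside 16.5% of all sequences, and 1 lower, beside 141 of 2226. In that setting Glu-CTC-1 1 to 28 had an adjusted p of 0.0761 (limma voom). The mean last position differed by -2.57 nt (exact sign-flip test, p = 0.25, the smallest possible over 3 pairs).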

Other observations

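Fragments that begin inside the Glu tRNA were few, but their start positions were not spread evenly. Internal fragments that start at position 52, the last base of the 5' strand of the T stem, had 12.73, 5.401 and 0 counts per 1000000 tRNA-aligned reads (CPM) in control libraries and 1053, 18.16 and 180 in experimental ones, from 7, 4 and 0 against 923, 35 and 336 reads. Those that start there and reach the 3' end had 0, 4.051 and 0 CPM against 336.6, 2.594 and 70.73. Experimental replicates 1 and 3, which held most 5' fragments ending at 28 and 29, also held most of these. Internal fragments starting at position 16, in the D loop, had 529.1, 341.6 and 350.2 CPM against 472.3, 898.7 and 214.9, and here experimental replicate 2 was highest and experimental replicate 3 lowest. These starts were picked after their values were seen, and no test was run on them.

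Glu 5' sequences with 1 mismatch, which the members leave out, took 24.0% ± 2.24 (SD, n = 3) of exact and mismatched Glu 5' reads in controls and 27.1% ± 1.37 (SD, n = 3) in experimental libraries. The groups overlapped (exact permutation test, p = 0.2). The mismatch was at the last base for 13.6% ± 2.94 and 15.9% ± 0.835 of reads (SD, n = 3 each).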
